A study of Mus musculus with 27 samples.

Results

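The change in gene expression between 6 h and 24 h of rosiglitazone was examined in mature adipocytes of the 3T3-L1 line, mouse fibroblasts that turn into fat cells under hormone treatment. All 18781 genes that the array resolved to a single symbol were compared between the 3 arrays of the 24 h group and the 3 arrays of the 6 h group, 6 of the 27 arrays of the series. The series comprised 9 groups of 3 arrays: untreated adipocytes, labelled as time 0, and adipocytes given 1 µM rosiglitazone dissolved in DMSO for 30 min, 1 h, 2 h, 6 h, 12 h, 24 h, 36 h or 48 h. All groups shared the cell line and the earlier differentiation with dexamethasone, insulin and 3-isobutyl-1-methylxanthine, so every cell had met these agents before the drug. Of the samples used here, 0 carried a DMSO label, and hours of drug and hours in culture cannot be told apart. The labels do not say whether replicates were separate cultures, and p-values then measure the spread between arrays, which may be technical.

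Rosiglitazone is a thiazolidinedione antidiabetic drug that binds and activates PPARγ, the nuclear receptor that, with RXR as its partner, drives adipocyte differentiation and keeps genes of fat storage and fat oxidation active. Ligand binding acts on transcription quickly at direct target genes, and slower changes can run through the products of these genes, mRNA turnover and altered metabolism. In white adipocytes sustained exposure to such drugs is known to raise genes of brown-fat-like heat production and mitochondria and to lower inflammatory genes.

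Values are log2 expression values, so a difference of 1 is a doubling. Over the 6 arrays the array medians lay between 4.05 and 4.09. A gene is called here when its adjusted p in a limma model over all 27 arrays was under 0.05. Between 6 h and 24 h, 2164 genes were called, 11.5% of those tested: 1034 were higher at 24 h, 5.51%, and 1130 were lower, 6.02%. The count lower was 703 without 6 h replicate 2. Most differences were small, with a median size of 0.35 among the called genes against a median standard error of 0.088 over all genes. A change of at least 1.5-fold was seen in 127 of the genes called higher and 128 of those called lower, and one of at least 2-fold in 19 and 28. In 2121 of the 2164 called genes the 3 arrays of one group lay beyond all 3 of the other, as they did in 28.0% of all genes. The median change over all genes was 0.00022. Of 14 reference genes 2 were higher and 2 lower, among them Gusb, beta-glucuronidase, at 7.34, 7.19 and 7.04 against 6.46, 6.32 and 6.46 (−0.78 ± 0.087, adjusted p = 9.64e-07). The count of reference genes called higher was 0 without 6 h replicate 1, 6 h replicate 2 or 24 h replicate 1 and 1 without 24 h replicate 2 or 24 h replicate 3, and that called lower was 1 without 24 h replicate 3.

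Adipocyte genes stayed at high levels. Of 10 adipocyte markers 0 were called in limma, with 3 at an unadjusted p below 0.05 (the individual changes ran from −0.17 in Cebpa to 0.18 in Slc2a4), and their mean level per array was 11.39 to 11.47 at 6 h and 11.41 to 11.42 at 24 h. Pparg itself read 11.14, 11.22 and 11.27 at 6 h and 11.25, 11.27 and 11.22 at 24 h. Its groups overlapped, and the difference was 0.04 ± 0.049 (SE, n = 3 arrays in each group, adjusted p = 0.723). Adipoq, which encodes adiponectin, changed by −0.02 ± 0.054 (adjusted p = 0.912) and Fabp4, a fatty acid carrier, by 0.05 ± 0.062 (adjusted p = 0.704). Among 9 markers of preadipocytes and fibroblasts, Acta2 among them, 4 were lower and 0 higher (5 and 0 at an unadjusted p below 0.05 in limma). Their median change was −0.17, while Acta2 changed by −1.95. The mean level of the 9 markers per array was 8.23 to 8.26 at 6 h and 7.75 to 7.94 at 24 h, to which Acta2 contributes most. Dlk1, a defining preadipocyte gene, still had a mean of 9.83 at 24 h. In RNA from a whole culture, fewer cells of one type and less RNA per cell cannot be told apart. The 8 macrophage markers averaged 3.48 to 3.54 per array at 6 h and 3.35 to 3.52 at 24 h, and the 6 endothelial markers 3.25 to 3.3 and 3.21 to 3.25, below the median gene mean of 4.76. In limma 0 of these 8 and 0 of these 6 were called, with 1 macrophage marker and 0 endothelial markers at an unadjusted p below 0.05.

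**Figure D1:**
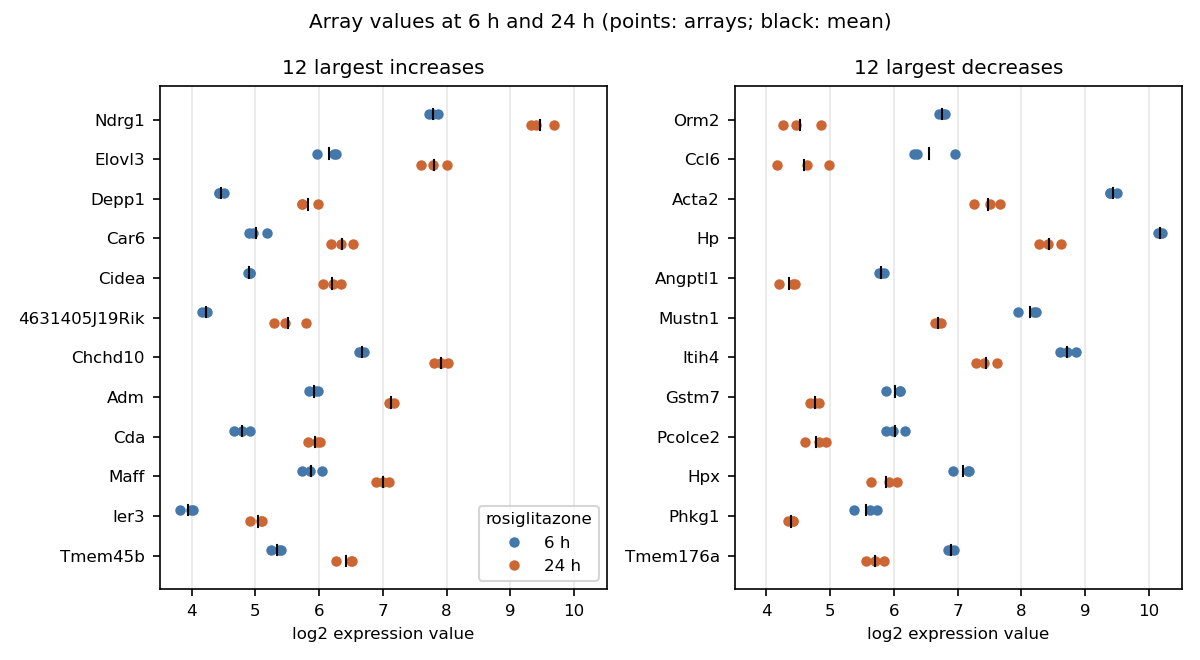
Log2 expression value (x axis) of each array at 6 h (blue) and 24 h (orange) for the 12 genes with the largest increases and the 12 with the largest decreases among called genes; black ticks are group means of 3 arrays. Only genes whose arrays did not overlap between the 2 groups were eligible, so the separation seen in all 24 was set by that choice. Differences run from 1.68 in Ndrg1 to −2.23 in Orm2.

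The 12 largest increases belonged to genes of varied roles. Ndrg1, a stress-responsive gene induced by low oxygen, read 7.78, 7.72 and 7.87 at 6 h and 9.68, 9.41 and 9.32 at 24 h. It was 3.21-fold higher at 24 h, a difference of 1.68 ± 0.14 (adjusted p = 8.74e-09). Elovl3, an elongase of very long fatty acids known from brown fat, went from 5.97, 6.27 and 6.23 to 8.01, 7.78 and 7.6 and was 3.12-fold higher. Groups that did not overlap were a condition for choosing these 12 genes and the largest decreases below. Depp1, an autophagy regulator, was 2.57-fold higher, Car6, a secreted carbonic anhydrase, 2.55-fold, and 4631405J19Rik 2.47-fold. Chchd10, a protein of the mitochondrial intermembrane space, was 2.36-fold higher, Cda, which deaminates cytidine, 2.21-fold, and Tmem45b 2.12-fold. The other 4 of the 12 largest increases, Cidea, Adm, Maff and Ier3, are given with their gene groups.

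The largest decreases were in plasma proteins of the acute phase, a chemokine and a contractile protein. Orm2, an orosomucoid, read 6.71, 6.77 and 6.8 at 6 h and 4.26, 4.46 and 4.85 at 24 h, and was 4.71-fold lower at 24 h, a difference of −2.23 ± 0.17 (adjusted p = 8.29e-09). Hp, haptoglobin, which binds free haemoglobin, went from 10.2, 10.17 and 10.15 to 8.62, 8.27 and 8.42, 3.33-fold lower (adjusted p = 2.49e-12). Acta2, smooth muscle actin, went from 9.39, 9.5 and 9.39 to 7.26, 7.51 and 7.67, 3.86-fold lower (adjusted p = 1.55e-10). In all 3 the spread among the 24 h arrays was far smaller than the fall, which their choice by size and separation favoured. Ccl6, a chemokine, was 3.88-fold lower, from 6.96, 6.32 and 6.37 to 4.16, 4.64 and 4.98. Angptl1, a secreted angiopoietin-like protein, was 2.73-fold lower, Mustn1, a small nuclear protein of muscle and bone, 2.71-fold, and Itih4, an acute-phase inhibitor heavy chain, 2.43-fold. Gstm7, a glutathione S-transferase, was 2.4-fold lower, Phkg1, the catalytic subunit of muscle phosphorylase kinase, 2.28-fold, and Tmem176a 2.27-fold. Orm1, Orm2 and Orm3, and the members of the Gstm family, are close in sequence, and how far their probes tell them apart was not tested.

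Of 33 hypoxia-responsive genes measured, 23 were higher at 24 h than at 6 h and 0 were lower (29 and 0 at an unadjusted p below 0.05 in limma), with a median change of 0.33 over the list. Low oxygen stabilises the HIF transcription factors, which bind a short core sequence near genes of oxygen supply, glucose use and pH control. Adm, encoding the vasodilator peptide adrenomedullin, read 5.99, 5.94 and 5.84 at 6 h and 7.18, 7.12 and 7.09 at 24 h, 2.31-fold higher (difference 1.21 ± 0.17, adjusted p = 2.48e-05). Car9, a carbonic anhydrase of the cell surface, went from 5.21, 5.15 and 4.9 to 6.22, 6.14 and 6.13, 2.11-fold higher (adjusted p = 7.8e-07). In Car9 every 24 h array was above every 6 h array, which for Adm was a condition of its choice among the largest increases. Hilpda, which inhibits lipolysis at the lipid droplet, was 1.68-fold higher, P4ha2, a collagen prolyl hydroxylase subunit, 1.63-fold, and Slc2a1, the GLUT1 glucose transporter, 1.49-fold. Vegfa, the angiogenic growth factor, went from 10.54, 10.49 and 10.57 to 10.83, 10.86 and 10.7, a difference of 0.26 ± 0.073 (adjusted p = 0.0168). Its call ended without 6 h replicate 2, 24 h replicate 1 or 24 h replicate 2, with an adjusted p of up to 0.0904. Ddit4, an inhibitor of mTORC1 signalling, changed by 0.37 ± 0.17 (adjusted p = 0.172). Without 24 h replicate 1 the count of genes called higher was 14 in place of 23.

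The proximal promoters of 4 of these genes are shown because each holds the HIF core, ACGTG or GCGTG, in the 250 bases before the gene start. Capitals mark the matches on either strand, so that CACGT and CACGC are matches read from the other strand; the longer E-box CACGTG contains the ACGTG core. Each stretch of 100 bases runs 5′ to 3′ on the strand of the gene, from RefSeq, build GRCm38.p6, all on the plus strand: Adm at chr7:110627553-110627652, Car9 at chr4:43506926-43507025, P4ha2 at chr11:54100805-54100904 and Slc2a1 at chr4:119108645-119108744.
Adm: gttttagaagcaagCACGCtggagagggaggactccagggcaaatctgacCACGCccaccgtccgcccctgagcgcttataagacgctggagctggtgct
Car9: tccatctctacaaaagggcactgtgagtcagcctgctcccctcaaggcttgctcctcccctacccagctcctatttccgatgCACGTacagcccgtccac
P4ha2: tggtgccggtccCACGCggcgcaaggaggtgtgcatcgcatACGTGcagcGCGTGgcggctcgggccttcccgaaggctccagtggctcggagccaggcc
Slc2a1: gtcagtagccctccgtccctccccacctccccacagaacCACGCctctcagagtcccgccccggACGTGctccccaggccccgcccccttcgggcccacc

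The match nearest the gene start began 54 bases before it in Adm, 18 in Car9, 69 in P4ha2 and 36 in Slc2a1. Of the 23 hypoxia-responsive genes called higher, 20 had a promoter entry, and 15 of these, 75.0%, held at least 1 match in the 250 bases. Over all list members with an entry, called or not, the share was 23 of 29, or 79.3%, and the called genes Gbe1, Hilpda and Vegfa held 0 matches. The same letters were found in 46.6% of the 14723 tested genes with an entry, in 61.4% of all genes called higher and in 55.4% of all genes called lower. A match is a description of the sequence and no evidence of binding.

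The glycolysis genes that were called were all higher at 24 h. Of 23 genes on this list 8 were higher and 0 lower (15 and 0 at an unadjusted p below 0.05 in limma), with a median change of 0.18. Beside enzymes of glycolysis the list holds transporters, such as Slc2a1 and Slc16a3, and glycogen genes, such as Gbe1. Pfkp and Pfkm, subunits of phosphofructokinase, were 1.54-fold and 1.3-fold higher, and Slc16a3, a lactate exporter, 1.42-fold. Gbe1, the glycogen branching enzyme, went from 10.0, 9.97 and 10.08 to 10.84, 10.77 and 10.57, 1.63-fold higher (adjusted p = 5.78e-07). Gbe1, Slc2a1 and other called genes were on both the glycolysis and the hypoxia list, so the counts of these lists are not separate results. Of the 23 glycolysis genes 15 were not called. Without 24 h replicate 1 the glycolysis count was 5. Of 24 genes of insulin signalling and glucose uptake 1 was higher and 2 were lower, shares of 4.17% and 8.33% beside 5.51% and 6.02% over all genes. Leaving out 1 array moved these counts between 0 and 2 and between 1 and 3, with 0 higher without 24 h replicate 2, 2 higher without 6 h replicate 1 or 24 h replicate 3, and 1 lower without 6 h replicate 1, 6 h replicate 2, 24 h replicate 1 or 24 h replicate 2. Pik3r1, the regulatory subunit of phosphoinositide 3-kinase, fell from 9.94, 9.96 and 10.07 to 9.71, 9.75 and 9.57 (−0.32 ± 0.076, adjusted p = 0.00626), while Slc2a4, the insulin-regulated transporter GLUT4, changed by 0.18 ± 0.067 (adjusted p = 0.0879).

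**Figure D2:**
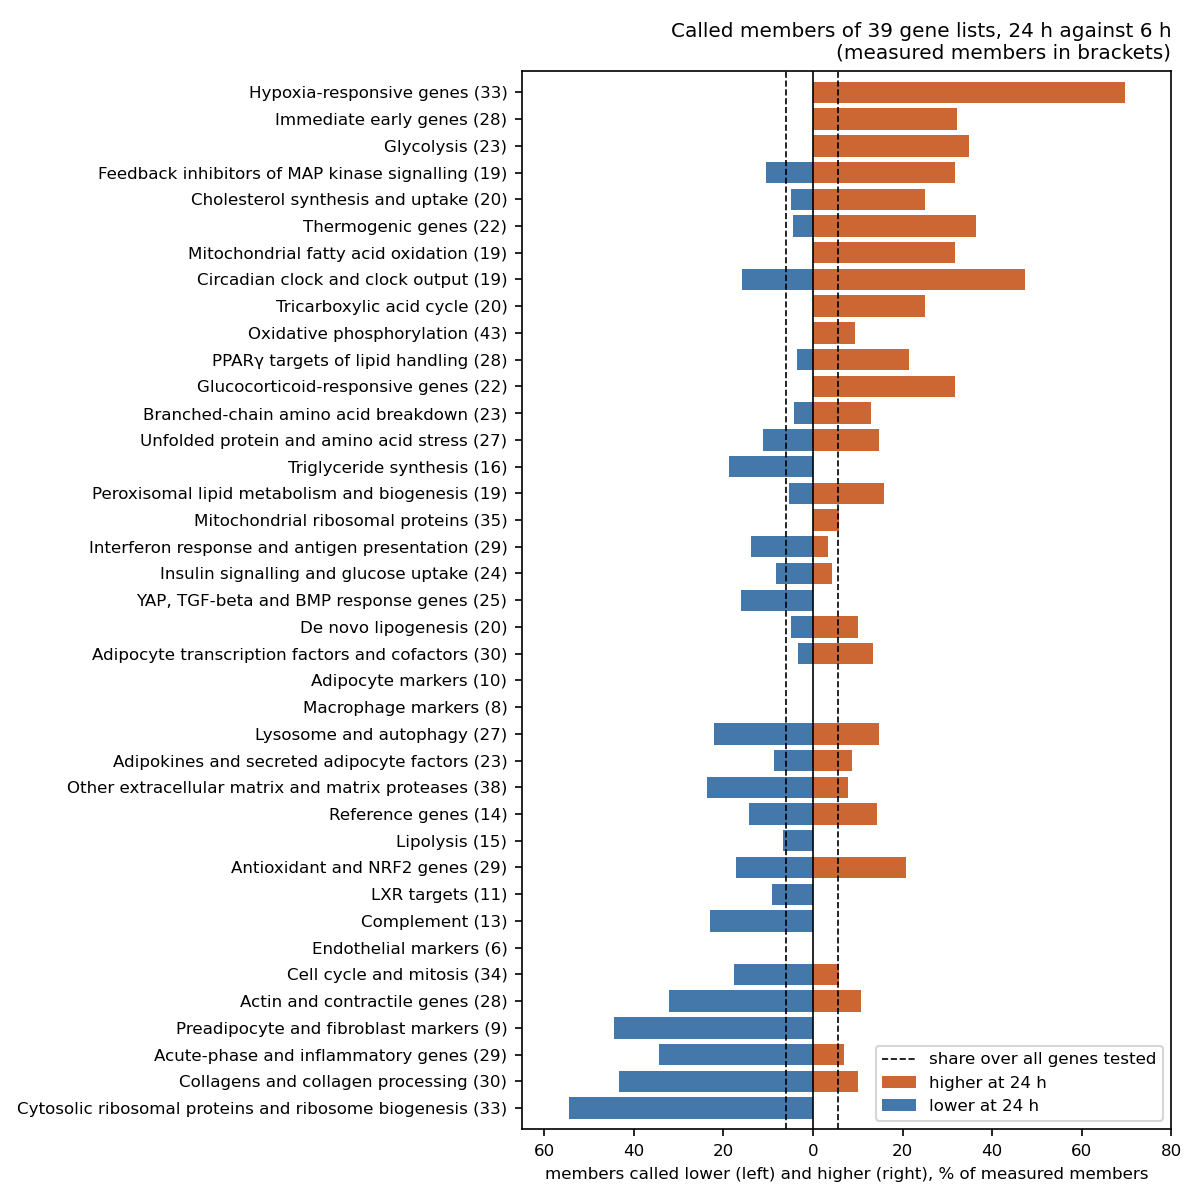
Share of the measured members of each of the 39 gene lists that were called higher (orange, right) or lower (blue, left) at 24 h than at 6 h, in %, ordered by median change; dashed lines mark 5.51% and 6.02%, the shares over all genes tested. Hypoxia-responsive genes have the longest bar on the right, with 23 of 33, and cytosolic ribosomal proteins and ribosome biogenesis the longest on the left, with 18 of 33.

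Several genes of thermogenic fat were higher, while Ucp1 was not called. Of 22 thermogenic genes 8 were higher and 1 was lower, with a median change of 0.14. The count called lower was 0 without any single array other than 6 h replicate 2 or 24 h replicate 3. Cidea, a lipid droplet protein of brown fat, read 4.91, 4.91 and 4.89 at 6 h and 6.06, 6.35 and 6.22 at 24 h, 2.48-fold higher (difference 1.31 ± 0.12, adjusted p = 8.89e-08). Cox7a1, a cytochrome oxidase subunit of muscle and brown fat, went from 8.87, 8.8 and 8.84 to 9.68, 9.74 and 9.76, 1.85-fold higher (adjusted p = 1.82e-07). Ucp1, which uncouples respiration to produce heat, read 2.98, 2.81 and 2.84 at 6 h and 2.68, 2.81 and 2.95 at 24 h, near the low end of the array's values, whose lowest was 1.67. Its groups overlapped, and the difference was −0.07 ± 0.086 (adjusted p = 0.73). Ppargc1a, a coactivator of mitochondrial genes, went from 7.05, 7.25 and 7.32 to 7.86, 7.78 and 7.43, a difference of 0.48 ± 0.14 (adjusted p = 0.0194) that lost its call without 6 h replicate 1, 24 h replicate 1 or 24 h replicate 2. The count of thermogenic genes called higher was 4 without 6 h replicate 1.

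The genes called on 4 mitochondrial lists were all higher, by small amounts. In limma, an unadjusted p below 0.05 in the lower direction was seen in 0 genes of 3 of these lists and in 3 mitochondrial ribosomal protein genes. Of 19 genes of mitochondrial fatty acid oxidation 6 were higher and 0 lower, led by the trifunctional protein subunits Hadhb, at 10.04, 10.18 and 10.33 against 10.65, 10.65 and 10.65 (difference 0.47 ± 0.073, adjusted p = 7.96e-05), and Hadha, with a difference of 0.35 ± 0.065 (adjusted p = 0.000517). The tricarboxylic acid cycle list had 5 of 20 genes higher and 0 lower, among them Dlat (0.37 ± 0.063, adjusted p = 0.000282) and Pdhb (0.29 ± 0.066, adjusted p = 0.00408) of the pyruvate dehydrogenase complex. Of 43 oxidative phosphorylation genes 4 were called higher and 0 lower, while 42 had a difference above 0, with a median of 0.11. Of 35 mitochondrial ribosomal protein genes 2 were higher and 0 lower, and 5.71% higher is near the 5.51% over all genes. These counts rested on single arrays and on the scaling. Centring each array on its median left 2 fatty acid oxidation, 3 tricarboxylic acid cycle and 2 oxidative phosphorylation genes called. Leaving out 6 h replicate 1, 6 h replicate 2, 24 h replicate 1 or 24 h replicate 2 left 2 fatty acid oxidation genes. The tricarboxylic acid cycle count was 2 without 6 h replicate 1 or 24 h replicate 1 and 3 without 6 h replicate 2 or 24 h replicate 3, and the oxidative phosphorylation count was 1 without 24 h replicate 1 and 2 without 6 h replicate 1, 6 h replicate 2 or 24 h replicate 3.

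Lipid genes that PPARγ is known to control were called more often higher than lower. Of 28 such targets 6 were higher and 1 was lower, 25.0% called beside 11.5% over all genes, and their median change of 0.04 stood beside a median difference of 0.25 between 6 h and untreated cells. Pdk4, which restrains glucose oxidation, read 8.22, 8.24 and 8.33 at 6 h and 9.03, 9.04 and 8.94 at 24 h, 1.67-fold higher (adjusted p = 3.7e-05). Angptl4, whose secreted product blocks lipoprotein lipase, read 10.45, 10.31 and 10.45 at 6 h and 10.32, 10.34 and 10.32 at 24 h (−0.07 ± 0.073, adjusted p = 0.644), against a mean of 9.37 in untreated cells. Pck1, which makes glycerol precursors for fat storage, changed by 0.18 ± 0.11 (adjusted p = 0.398), from a 6 h mean that was 1.78 above untreated. Acaa1b, a peroxisomal thiolase close in sequence to Acaa1a, was 2.1-fold higher, with arrays at 5.63, 6.07 and 6.17 against 7.08, 7.19 and 6.82 (adjusted p = 0.000644). It belonged to 19 peroxisomal genes of which 3 were higher and 1 was lower, or 0 without any single array other than 6 h replicate 1 or 24 h replicate 1.

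Fat synthesis genes showed no common direction. Of 16 triglyceride synthesis genes 0 were higher and 3 lower (3 and 5 at an unadjusted p below 0.05 in limma), among them Dgat2, the last step of triglyceride synthesis, with −0.32 ± 0.062 (adjusted p = 0.00102), and Gpat3, the first step, with −0.38 ± 0.09 (adjusted p = 0.00503). Of 15 lipolysis genes 1 was lower (2 without 24 h replicate 1), Hcar1, the lactate receptor that inhibits lipolysis, at 8.87, 8.98 and 8.79 against 8.33, 8.34 and 8.54 (−0.48 ± 0.086, adjusted p = 0.000402). This share of 6.67% was near the 6.02% lower over all genes. Of 20 lipogenesis genes 2 were higher and 1 was lower: Acacb, the mitochondrial acetyl-CoA carboxylase, was 1.52-fold higher (adjusted p = 1.53e-05), and Fasn, fatty acid synthase, changed by −0.1 ± 0.052 (adjusted p = 0.277). The lipogenesis shares were 10.0% higher and 5.0% lower, beside 5.51% and 6.02% over all genes. The lipogenesis count called lower was 0 without 6 h replicate 2 or 24 h replicate 1 and 2 without 24 h replicate 3. The cholesterol list had 5 of 20 genes higher and 1 lower (0 lower without 6 h replicate 2, 24 h replicate 1 or 24 h replicate 2), with increases in Pmvk (0.45 ± 0.071, adjusted p = 0.000107), Sqle (0.4 ± 0.066, adjusted p = 0.000153) and Cyp51 (0.43 ± 0.079, adjusted p = 0.000556), enzymes of sterol synthesis. In all 3 the 6 h mean lay below the untreated mean, with differences of −0.64 in Pmvk, −0.43 in Sqle and −0.65 in Cyp51. The 24 h mean of each lay between the other two. Of 11 LXR target genes 0 were higher and 1 was lower, or 0 without 6 h replicate 1, 6 h replicate 2, 24 h replicate 1 or 24 h replicate 2. The LXR share lower was 9.09%, beside 6.02% over all genes. In limma 1 gene of each direction had an unadjusted p below 0.05, and Srebf1, a regulator of lipogenesis, changed by −0.1 ± 0.061 (adjusted p = 0.355). Of 23 genes of branched-chain amino acid breakdown 3 were higher and 1 was lower. Without 6 h replicate 1 the first count was 1, and the second was 0 without 6 h replicate 2, 24 h replicate 1 or 24 h replicate 2 and 2 without 6 h replicate 3.

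Genes of inflammation and the acute phase were more often lower than higher. Of 29 such genes 10 were lower and 2 higher (1 higher without 6 h replicate 1 or 24 h replicate 2), with a median change of −0.17. Beside Orm2, Hp and Ccl6, these included Hpx, hemopexin, which binds haem, at 7.17, 7.18 and 6.92 against 6.05, 5.64 and 5.93, 2.33-fold lower (adjusted p = 2.25e-07), and the chemokine Ccl9, 1.59-fold lower (adjusted p = 8.74e-06). Ccl2, the monocyte chemoattractant, read 4.98, 4.96 and 4.97 at 6 h and 4.37, 4.36 and 4.64 at 24 h. Its difference of −0.52 ± 0.16 (adjusted p = 0.0396) lost its call without any single one of the 6 arrays other than 24 h replicate 3. Of 13 complement genes 3 were lower and 0 higher (4 and 1 at an unadjusted p below 0.05 in limma), namely Cfb, 1.49-fold, C1ra, 1.44-fold, and Serping1, 1.42-fold. Of 29 interferon and antigen presentation genes 4 were lower and 1 was higher. Usp18, which dampens interferon signalling, went from 7.48, 7.69 and 7.68 to 7.0, 6.98 and 6.84 (−0.68 ± 0.13, adjusted p = 0.00115). The interferon count called lower was 2 without 6 h replicate 2, and without 6 h replicate 1 the count called higher was 0. The macrophage markers given above lay at 3.35 to 3.54 in mean level over these 6 arrays. Other myeloid genes, named after their values were seen, stood higher and fell in the same arrays, Siglec1 by 0.77 and Trem2 by 0.98 on the log2 scale. The cells were of the 3T3-L1 line, and which cells of the culture expressed these genes was not tested.

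More matrix and contractile genes were lower than higher. Of 30 genes of collagens and collagen processing 13 were lower and 3 higher, with a median change of −0.2. Pcolce2, an enhancer of procollagen processing, went from 5.99, 6.18 and 5.87 to 4.6, 4.82 and 4.93, 2.35-fold lower (adjusted p = 1.62e-07). Loxl1, a matrix cross-linking oxidase, was 1.54-fold lower, Serpinh1, the collagen chaperone, 1.35-fold, and Bmp1, the procollagen C-proteinase, 1.34-fold. The gene called higher with the smallest p on this list was P4ha2, which was also on the hypoxia list. Col1a1 itself changed by −0.17 ± 0.062 (adjusted p = 0.0822). Without 24 h replicate 1 the collagen count called lower was 6. Of 38 other matrix genes 9 were lower and 3 higher: Timp2, an inhibitor of metalloproteinases, was 1.52-fold lower and Mmp11, a metalloproteinase, 1.54-fold higher.

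Among 28 actin and contractile genes 9 were lower and 3 higher (1 higher without 6 h replicate 2), with a median of −0.1. Flna, filamin A, which cross-links actin, read 9.05, 9.14 and 9.08 at 6 h and 8.01, 7.94 and 8.05 at 24 h, 2.13-fold lower (adjusted p = 8.29e-09). Myl9, a myosin light chain, was 1.95-fold lower and Tagln, transgelin, 1.57-fold. Zyx, a focal adhesion protein, rose from 7.59, 7.53 and 7.28 to 8.07, 8.0 and 8.17 (0.61 ± 0.083, adjusted p = 1.69e-05). Of 25 YAP, TGF-beta and BMP response genes 4 were lower and 0 higher (4 and 2 at an unadjusted p below 0.05 in limma). The share lower was 16.0%, beside 6.02% over all genes. As a whole the list had no common direction, with a median of 0.01 and 13 of the 25 differences above 0. Those called lower included Tgfb2, a TGF-beta ligand (−0.55 ± 0.086, adjusted p = 0.000105), and Id1, a BMP target (−0.43 ± 0.076, adjusted p = 0.000359). Some fibroblast markers fell in the same arrays: S100a4 was 1.77-fold lower (adjusted p = 1.93e-05) and Fn1, fibronectin, 1.25-fold (adjusted p = 0.00587), and Acta2 fell most, by 1.95 on the log2 scale. The other called marker was Dlk1, with −0.24 (adjusted p = 0.0291), whose call ended without 6 h replicate 1, 6 h replicate 2, 24 h replicate 1 or 24 h replicate 2. The other 5 of the 9 were not called, with Pdgfrb at −0.1, Thy1 at −0.06 and Cd34 at 0.11 (named after their values were seen). Acta2, Fn1 and Col1a1 are also members of the contractile and matrix lists. The part of these markers in the falls of matrix and contractile genes was not tested.

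Many ribosome assembly genes fell. Of 33 genes for cytosolic ribosomal proteins and ribosome biogenesis 18 were lower and 0 higher (22 and 0 at an unadjusted p below 0.05 in limma), with a median change of −0.3. The 9 ribosomal protein genes of the list had differences from −0.12 to 0.06 and 0 calls in limma, also at an unadjusted p below 0.05, whereas 18 of the other 24, which include nucleolar assembly factors and RNA polymerase I subunits, were lower; this division was made after the values were seen. Nop56, a core protein of box C/D particles that modify ribosomal RNA, read 9.84, 9.85 and 9.63 at 6 h and 8.98, 8.93 and 8.99 at 24 h, 1.75-fold lower (adjusted p = 3.52e-07). Rrp12, needed to export ribosomal subunits, went from 6.48, 6.44 and 6.15 to 5.38, 5.44 and 5.77, 1.77-fold lower (adjusted p = 5.3e-06). Heatr1, Utp20 and Wdr12, all factors of ribosomal RNA processing, were 1.58-fold, 1.44-fold and 1.53-fold lower. The count was between 16 and 18 without any single array. At 6 h these 5 named genes stood above untreated cells, by 0.32 in Nop56, 0.64 in Heatr1, 0.57 in Rrp12, 0.49 in Wdr12 and 0.33 in Utp20. At 24 h their differences from untreated were −0.49, −0.02, −0.26, −0.13 and −0.2 in the same order. These comparisons use the same 6 h and 24 h arrays as the change itself.

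**Figure D3:**
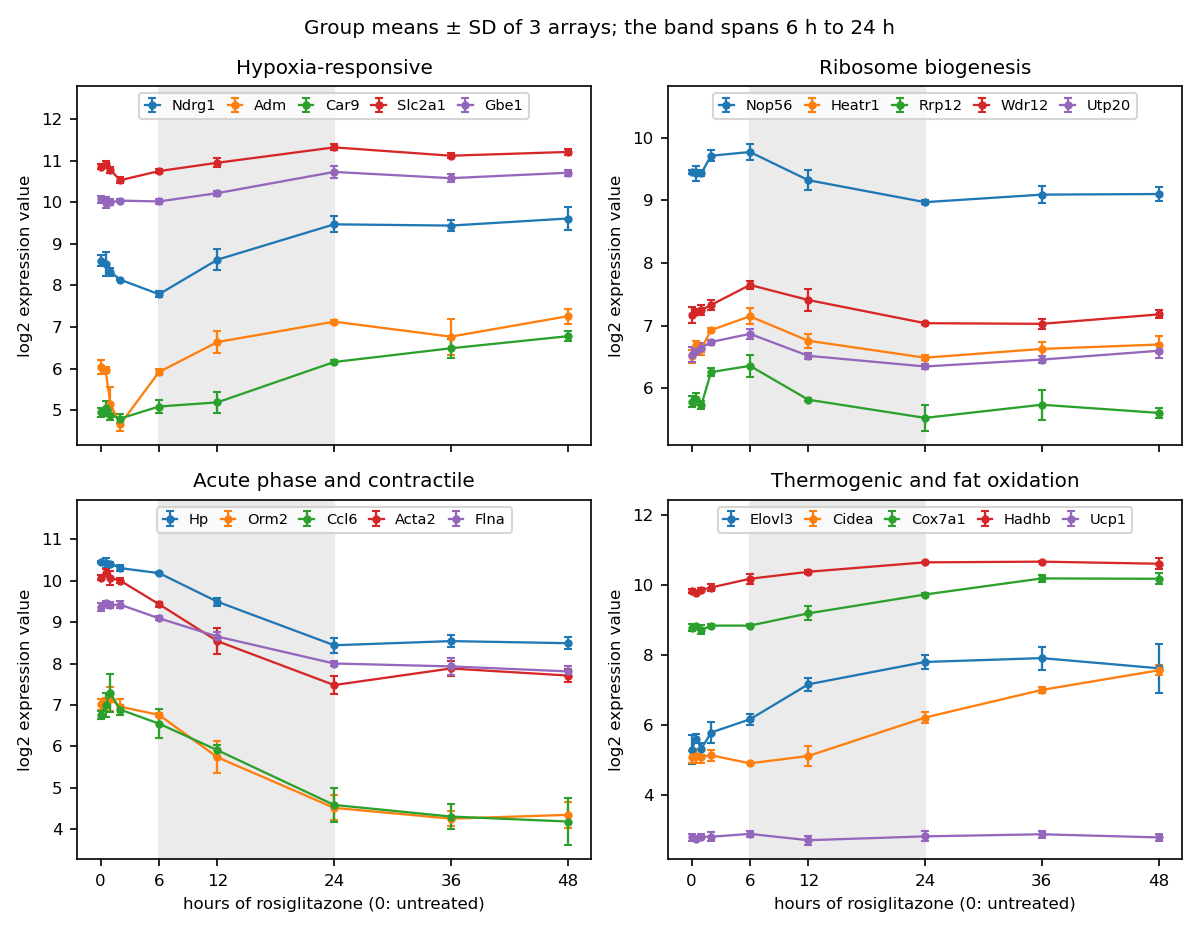
Mean log2 expression value ± SD (y axis) of 3 arrays against hours of rosiglitazone (x axis, 0 being untreated) for 5 named genes in each of 4 panels; the grey band spans 6 h to 24 h. Rrp12 peaks at 6 h at 6.36 and lies at 5.53 at 24 h, Ndrg1 has its lowest mean at 6 h at 7.79, and Hp lies between 8.44 and 8.54 from 24 h on.

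Immediate early genes respond first to growth and stress signals. Of 28 such genes 9 were higher and 0 lower (11 and 0 at an unadjusted p below 0.05 in limma), with a median of 0.23, and 19 were not called, among them Fos with a difference of 0.02 and Egr1 with 0.19 (both named after their values were seen). Against untreated cells 18 of the 28 were lower and 0 higher at 6 h. At 24 h 14 were still lower than untreated and 5 higher, with a median of −0.35. Maff, a small MAF transcription factor, read 6.05, 5.74 and 5.86 at 6 h and 7.1, 6.89 and 7.0 at 24 h, 2.16-fold higher (adjusted p = 1.31e-07), and Ier3 was 2.13-fold higher (adjusted p = 5.66e-05). The AP-1 subunits Jun and Jund were 1.64-fold and 1.69-fold higher, Jun with arrays at 8.09, 8.06 and 8.05 against 8.83, 8.76 and 8.75. Atf3, a stress-induced repressor, was 1.75-fold higher. Of 19 genes listed as feedback inhibitors of MAP kinase signalling 6 were higher and 2 lower. The shares were 31.6% and 10.5%, beside 5.51% and 6.02% over all genes. This list also holds transcription factors that are not inhibitors. Dusp1, a MAP kinase phosphatase, was 1.89-fold higher (adjusted p = 4.22e-05) and Spry4, an inhibitor of receptor signalling, 1.73-fold lower (adjusted p = 0.000308). Without 6 h replicate 1 the count of genes of this list called higher was 3. Of 22 glucocorticoid-responsive genes 7 were higher and 0 lower (8 and 3 at an unadjusted p below 0.05 in limma), with a median of 0.04. The share higher was 31.8%, beside 5.51% over all genes, and 15 were not called. Among the 7 were Mt2, a metallothionein (1.48-fold, adjusted p = 3.58e-05), and Dusp1, Per1 and Pdk4, which are also on other lists. Probes of Mt1 and Mt2 may not tell these alike genes apart.

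Clock genes moved in both directions. Of 19 genes of the circadian clock and its output 9 were higher and 3 lower. Among activators of the clock, Npas2 went from 7.54, 7.85 and 7.76 to 6.72, 6.64 and 6.58, 2.1-fold lower (adjusted p = 2.19e-07), and Arntl, its partner, was 1.49-fold lower (adjusted p = 1.53e-05). Among its repressors, Per3 went from 6.47, 6.42 and 6.57 to 7.25, 7.32 and 7.17, 1.69-fold higher (adjusted p = 1.25e-05). Nr1d2 was 1.61-fold, Per1 1.45-fold and Ciart 1.42-fold higher. Without 24 h replicate 2 or 24 h replicate 3 the count called higher was 5. The labels used here give hours of drug and no clock time of harvest, and clock phase and drug duration cannot be told apart.

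Antioxidant genes moved both ways, with 6 of 29 higher and 5 lower. Hmox1, haem oxygenase, read 10.24, 10.06 and 9.85 at 6 h and 11.07, 11.04 and 11.09 at 24 h, 2.02-fold higher (adjusted p = 2.13e-08). Nqo1, a quinone reductase and a standard NRF2 target like Hmox1, went from 7.06, 6.94 and 6.89 to 5.81, 5.6 and 6.02, 2.22-fold lower (adjusted p = 1.11e-07). These 2 targets moved in opposite directions, each with groups that did not overlap. Gstt1, a glutathione S-transferase, was 2.08-fold lower and Mgst2, a microsomal one, 1.74-fold higher. Txnip, which binds thioredoxin and limits glucose uptake, rose from 10.82, 10.84 and 10.91 to 11.21, 11.17 and 11.14 (0.32 ± 0.052, adjusted p = 0.000148). Of 27 genes responding to unfolded proteins or amino acid shortage 4 were higher and 3 lower (1 higher without 6 h replicate 2 or 24 h replicate 1, 2 without 24 h replicate 2), with Phgdh, the first enzyme of serine synthesis, 1.38-fold lower. Of 27 lysosome and autophagy genes 4 were higher and 6 lower. Lipa, the acid lipase of the lysosome, was 1.51-fold higher, Npc1, which exports cholesterol from it, 1.46-fold higher and Hexa, a hexosaminidase, 1.33-fold lower. The count of lysosomal genes called lower was 2 without 6 h replicate 1, 6 h replicate 2 or 24 h replicate 2, and 3 without 24 h replicate 1.

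Of 30 adipocyte transcription factors and cofactors 4 were higher and 1 was lower, 16.7% called beside 11.5% over all genes. Nrip1, a corepressor of oxidative genes, fell from 7.9, 7.98 and 7.98 to 7.56, 7.57 and 7.43 (−0.43 ± 0.084, adjusted p = 0.000832), and Ebf3 was 1.36-fold higher (adjusted p = 0.000633). Rxra changed by −0.19 ± 0.077 (adjusted p = 0.13), Cebpa by −0.17 ± 0.075 (adjusted p = 0.162) and Cebpb by 0.03 ± 0.1 (adjusted p = 0.933). Without 6 h replicate 1 the count called higher was 1, and without 6 h replicate 3 the count called lower was 2. Of 23 adipokines and secreted adipocyte factors 2 were higher and 2 lower, or 17.4% called. The count called higher was 1 without 6 h replicate 2, 24 h replicate 1 or 24 h replicate 2 and 3 without 6 h replicate 3; the count called lower was 1 without any single array other than 6 h replicate 1 or 24 h replicate 2. Agt, angiotensinogen, went from 11.14, 11.09 and 11.09 to 10.53, 10.47 and 10.64, 1.48-fold lower (adjusted p = 8.1e-06), and Nrg4, a factor released by brown fat, was 1.33-fold higher (adjusted p = 0.00424). Lep, leptin, read 3.68, 4.41 and 4.19 at 6 h and 3.76, 3.85 and 4.24 at 24 h (−0.14 ± 0.24, adjusted p = 0.81), and Retn, resistin, changed by −0.12 ± 0.056 (adjusted p = 0.212).

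Of 34 genes of the cell cycle and mitosis 6 were lower and 2 higher between 6 h and 24 h, 17.6% and 5.88% beside 6.02% and 5.51% over all genes, with a median of −0.1. Ccnd1, cyclin D1, was 1.52-fold lower (adjusted p = 0.000174), Mcm5, a subunit of the replicative helicase, 1.5-fold lower (adjusted p = 0.000461), and Cdkn1b, the cell cycle inhibitor p27, 1.36-fold higher (adjusted p = 1.71e-05). Without 6 h replicate 1 the count called lower was 3, and without any single array other than 6 h replicate 2 the count called higher was 1. Between 2 h and 36 h, 24 of the same 34 genes were lower and 4 higher, with a median of −0.6.

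The comparison of 36 h with 2 h uses none of the 6 arrays and shows which changes recur in other arrays. Weights that limma estimated for each array from its spread were the most uneven at 36 h, at 0.335, 0.47 and 3.88. The counts given here use no weights. It called 1875 genes higher, 9.98%, and 1959 lower, 10.4%. Centring each array on its median turned this to 2755 higher and 1451 lower and the median change over all genes from 0.014 to 0.07, so the balance of its directions depends on the scaling. Of the 1034 genes higher at 24 h than at 6 h, 927, or 89.7%, had the same sign and 648, or 62.7%, were called higher at 36 h than at 2 h, while 16 were called lower. Of the 1130 genes lower at 24 h, 1005, or 88.9%, had the same sign and 710, or 62.8%, were called lower, while 20 were called higher. After centring, the counts called the same way were 722 and 606. Hypoxia-responsive genes had 26 of 33 higher and 2 lower in that comparison, ribosome genes 0 higher and 16 lower, oxidative phosphorylation genes 18 of 43 higher and 0 lower, and collagen genes 2 higher and 21 lower. Between 36 h and 2 h Ndrg1 differed by 1.3 (adjusted p = 9.71e-08), Hp by −1.77 (adjusted p = 8.29e-13) and Cidea by 1.87 (adjusted p = 4.82e-11). The clock genes did not all recur: Per3 differed by −0.45 between 36 h and 2 h (adjusted p = 0.00173), opposite to its rise from 6 h to 24 h, and Arntl by −0.03 (adjusted p = 0.864). Nor did the direction of the cholesterol list recur. From 6 h to 24 h it had 5 of 20 genes higher and 1 lower. At 36 h against 2 h it had 0 higher and 4 lower, with a median of −0.1.

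The early response was set beside the later change. At 2 h, 571 genes were higher than in untreated cells, 3.04%, and 539 were lower, 2.87%, in arrays that the 24 h against 6 h comparison does not use. Of the 571 early increases, 159, or 27.8%, were lower at 24 h than at 6 h, against 6.02% of all genes, and 24, or 4.2%, were higher, against 5.51%. Of the 539 early decreases, 110, or 20.4%, were higher at 24 h than at 6 h and 26, or 4.82%, were lower. Taken from the other side, 14.1% of the genes lower at 24 h than at 6 h had been higher at 2 h, and 10.6% of those higher at 24 h had been lower at 2 h. Usp18 is an example of a return, with 1.32 above untreated at 2 h and −0.68 from 6 h to 24 h. Adm differed from untreated by −1.38 at 2 h, −0.12 at 6 h (adjusted p = 0.734) and 1.09 at 24 h, so that its later rise went past the untreated level. Immediate early genes had 16 of 28 lower and 0 higher at 2 h, and hypoxia-responsive genes 11 of 33 lower and 2 higher. Ribosome genes had 10 of 33 higher and 0 lower at 2 h.

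**Figure D4:**
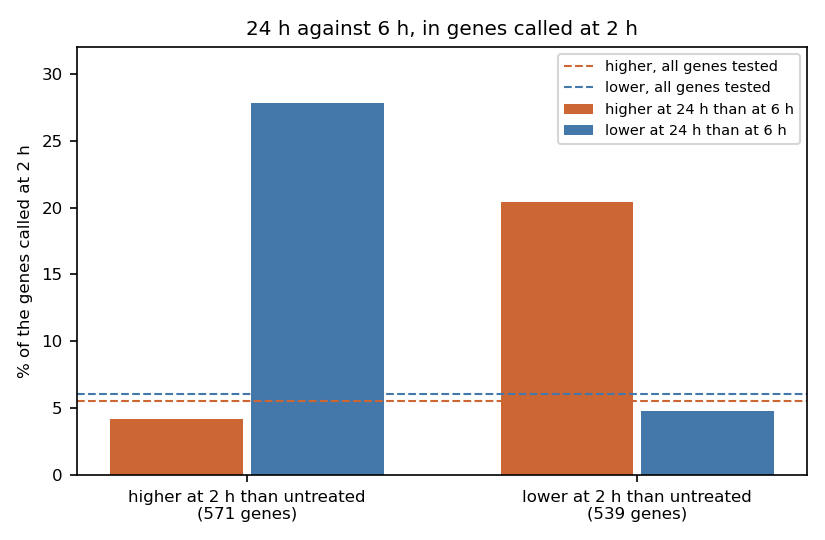
Share of the genes called higher (left) or lower (right) at 2 h than in untreated cells that were called higher (orange) or lower (blue) at 24 h than at 6 h, in % (y axis); dashed lines mark the shares over all genes tested, 5.51% and 6.02%. The highest bar is 27.8%, for early increases that were lower at 24 h, followed by 20.4% for early decreases that were higher at 24 h.

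The 12 h arrays show the course within the interval. In 92.3% of the 2164 called genes the 12 h mean lay between the 6 h and 24 h means, and at 12 h, 0.33 of the way in time, the median gene had covered 0.45 of its change, among genes called higher and among those called lower. Named genes spread around this value. Cidea had covered 0.16 of its rise by 12 h, Car9 0.1 and Per3 0.1, whereas Phkg1 had covered 0.7 of its fall, Tmem45b 0.68 of its rise and Rrp12 0.65 of its fall. Ribosome genes called lower had a median of 0.63, and hypoxia-responsive genes called higher one of 0.34. These shares rest on the same 6 h and 24 h arrays that chose the genes and are given with no test.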

How the data were processed

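RNA of 27 samples was hybridised to Affymetrix Mouse Gene 1.1 ST arrays. The deposited table holds log2 expression values per probe set; Partek and RMA are named in the submitters' processing notes, with versions not given in the sources used here. Of 28815 probe sets, 21153 carried 1 gene symbol, 1867 several and 5795 none in the platform annotation, whose symbols were checked against RefSeq; only the first kind was used, with the probe set of the highest mean kept for each of 1367 genes with several. Group means over all 27 arrays were modelled in R 4.3.3 with limma 3.58.1 (lmFit, eBayes, two-sided, 18 residual degrees of freedom), Benjamini-Hochberg adjusted over 18781 genes; tables and plots used Python 3.11.15, pandas 2.3.3, numpy 2.4.6 and matplotlib 3.10.9. The scripts were tested on simulated data. The number of arrays limits the precision. No pair of arrays held identical values.

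Named genes were up to 12 with the largest increase and 12 with the largest decrease among called genes with groups that did not overlap, up to 5 of each of 39 gene lists by smallest p, and a fixed panel. Of 986 list entries 84 had no probe set with that symbol alone and were not analysed here. Members and lists were chosen with earlier results of these data known. Lists are described by counts and medians with no set test.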

Additional observations from a re-analysis of the deposited data

Results flagged for a closer look

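The step from 6 h to 24 h differed from the step from 24 h to 48 h in 391 genes, 2.08% of those tested, by a limma contrast of the 2 steps (Benjamini-Hochberg adjusted p below 0.05), with 163 differences above 0 and 228 below. Of these, 353 were also called between 6 h and 24 h; both steps use the 24 h arrays. Acta2 fell by 1.95 in the first step and stood at 7.48 at 24 h and 7.71 at 48 h, a difference of steps of −2.18 ± 0.21 (adjusted p = 9.75e-07). Hp stood at 8.44 and 8.49 (adjusted p = 2.77e-07) and Ndrg1 at 9.47 and 9.61 (adjusted p = 0.00085). Cidea went on rising, from 6.21 at 24 h to 7.56 at 48 h (adjusted p of the difference of steps 0.965). Mki67, a proliferation marker named after its values were seen, had means of 5.34 at 6 h, 5.35 at 24 h and 3.78 at 48 h (difference of steps 1.58 ± 0.24, adjusted p = 0.00085).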

How the results depend on the processing

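A test against a minimum change of 1.5-fold left 31 genes, 8 higher and 23 lower (25.8% higher, against 47.8% without it). Fits without replicate 1, 2 or 3 of every group called 814 to 1358 genes (450 to 656 higher, 364 to 739 lower, 41.2% to 55.3% higher), and fits without 1 of the 6 arrays 1485 to 1886 (750 to 863 higher, 703 to 1036 lower). Counts stayed within 1.5 times of 2164, from 1772 to 3104, with a replicate block, only the 6 arrays, median centring, a further quantile normalization, bright genes only, the mean of probe sets, a trended robust prior and array weights. The replicate block left 1772 genes, all among the 2164. Same-numbered 6 h and 24 h arrays deviated from their group means with correlations of −0.15, −0.18 and −0.44. Differently numbered arrays had correlations from −0.27 to 0.36. With 3 arrays in each group these values cannot settle whether the numbers pair the samples. Median centring moved the median change over all genes by less than 0.1. List counts without single arrays and shared calls after centring were added after seeing the data. Of 118 called genes named in the text, 97 kept the call in all 17 settings without the minimum change, 22 passed the minimum change, 21 lost the call in at least 1 of the 17, and 0 of the 140 named genes reversed. Of the 22 named genes not called, 4 were called in at least 1 setting; Slc2a4 and Col1a1 were called with bright genes only, a trended robust prior or array weights.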

Other observations

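The genes given here lie outside the naming rule and were chosen after their values were seen. A pair of subunits of AMP-activated kinase were higher at 24 h than at 6 h: Prkaa2, a catalytic subunit, went from 5.83, 5.8 and 5.7 to 6.36, 6.46 and 6.43 (0.65 ± 0.12, adjusted p = 0.000788), and Prkab2, a regulatory subunit that binds glycogen, from 6.17, 6.1 and 6.16 to 6.89, 6.76 and 6.74 (0.65 ± 0.082, adjusted p = 5.3e-06). Stbd1, which encodes a glycogen-binding protein, read 4.02, 4.15 and 3.95 at 6 h and 5.01, 4.49 and 5.09 at 24 h (adjusted p = 0.000689), and Epm2a, for the glycogen phosphatase laforin, 4.7, 4.75 and 4.57 and then 5.43, 5.66 and 5.66 (adjusted p = 1.8e-05). The call of Stbd1 ended in the fit without replicate 3 of every group (adjusted p = 0.0603). Phkg1, of glycogen breakdown, was 2.28-fold lower. Other glycogen genes were not called. The gene of muscle glycogen synthase changed by 0.15 (adjusted p = 0.203) and that of liver glycogen phosphorylase by −0.11 (adjusted p = 0.629). Eno2, an enolase isoform, was higher by 1.06 ± 0.12 (adjusted p = 2.39e-06).

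Some genes best known from macrophages and other myeloid cells were lower at 24 h. Siglec1, a sialic acid receptor, went from 7.61, 7.92 and 7.73 to 7.06, 7.04 and 6.83 (−0.77 ± 0.094, adjusted p = 3.52e-06), and Trem2, a lipid receptor, from 6.46, 6.56 and 6.45 to 5.42, 5.5 and 5.59 (−0.98 ± 0.14, adjusted p = 2.51e-05). Slc11a1, a metal transporter, differed by −0.72, Acp5, an acid phosphatase, by −0.76 and Itgal, an integrin, by −0.64. The 8 macrophage markers averaged 3.35 to 3.54 over the same arrays, and which cells of the 3T3-L1 culture expressed these genes was not tested.

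Probe sets of the genes of 2 neighbouring microRNAs, Mir182 and Mir183, were higher at 24 h. The mature forms, from RefSeq (GRCm38.p6), are shown because the arrays do not measure them; capitals mark the seed, bases 2 to 8. The first lies at chr6:30165962-30165986 and the second at chr6:30169711-30169732, both on the minus strand.
mmu-miR-182-5p: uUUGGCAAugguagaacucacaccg
mmu-miR-183-5p: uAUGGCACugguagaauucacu
Mir182 read 4.25, 4.24 and 4.0 at 6 h and 5.14, 4.96 and 4.45 at 24 h (0.69 ± 0.16, adjusted p = 0.00503, and 0.0516 without 24 h replicate 1). Mir183 read 2.83, 3.2 and 2.75 at 6 h and 3.96, 3.48 and 3.74 at 24 h (0.8 ± 0.18, adjusted p = 0.00354). Its 6 h values were near the low end of the array's values, whose lowest was 1.67. In fits without a replicate of every group, the Mir183 call ended without replicate 1 (adjusted p = 0.0604). The Mir182 call ended without replicate 1 or 2 (adjusted p up to 0.121).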
